A study of Homo sapiens with 4 samples.

Results

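The genes considered here handle retinoids, the vitamin A derivatives that cells turn into retinoic acid. CRABP1 and CRABP2 encode cellular retinoic acid binding proteins, ALDH1A1 and ALDH1A3 retinaldehyde dehydrogenases, RARA, RARB and RARG the nuclear retinoic acid receptors, and RARRES1 and RARRES3 proteins whose genes were named for their response to retinoids. They were found through the RefSeq accession that the array design gives for a probe, and they are 9 of the 19102 genes that could be named, read by 13 of the 34127 probes. CRABP1 was chosen by its fold change on these arrays, where it was among the largest falls, so its difference between the shRNAs is described without a test. The other 8 genes were chosen for their place in the pathway.

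PC3 cells, an androgen-independent line from a bone metastasis of human prostate cancer, were infected for 48 h with lentivirus that carried either an shRNA against ALKBH3, a demethylase that repairs alkylated single-stranded DNA, or an shRNA against GFP as control. Infected cells were selected with puromycin, and total RNA was taken 48 h or 96 h later from all groups alike. Each of the 4 combinations was measured on 1 Agilent single-colour array (Control shRNA 48h, ALKBH3 shRNA 48h, Control shRNA 96h, ALKBH3 shRNA 96h), so the number of arrays limits the precision, and the 2 arrays of an shRNA differ in time point. Neither the sequence of the ALKBH3 shRNA nor a separate infection of the cultures is given in the labels, and p-values measure only the spread between these arrays.

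Retinol enters cells from its plasma carrier RBP4 and is either stored as esters by LRAT or oxidised, first by retinol dehydrogenases to retinaldehyde and then by the ALDH1A enzymes to retinoic acid. CRABP2 is known to carry retinoic acid to the receptors in the nucleus, whereas CRABP1 holds it in the cytoplasm and has been linked to its breakdown by the CYP26 enzymes. The receptors pair with RXR proteins on direct repeats in DNA and change the transcription of target genes.

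Every signal below is a log2 intensity relative to the 75th percentile of its array, and every fold change is the signal with ALKBH3 shRNA minus that with control shRNA on the log2 scale. On an array, 67.0% to 70.9% of the probes were well above background. Over the 23244 probes that could be tested, knockdown and control arrays differed by a median of 0.149 in size (48 h) or 0.146 (96 h), and the 2 control arrays by 0.179. ALKBH3 itself was read by 2 probes. A_23_P35989 had a signal of -0.63 and -0.61 on the control arrays and of -2.67 and -2.68 on the knockdown arrays, earlier time point first, and A_33_P3225250 had -0.74 and -0.89 against -2.48 and -2.41. Both probes were lower on both knockdown arrays, with log2 fold changes of -2.05 and -1.63 (standard errors 0.11 and 0.13). Of the epithelial markers KRT8, KRT18, EPCAM and CDH1, 6 of 6 probes were well above background on all arrays. Of 5 probes for luminal and androgen-responsive markers 2 were so, for TMPRSS2 and KLK2, whereas a second KLK2 probe and that for KLK3 were so on no array. Probes for leukocyte markers were well above background on all arrays in 5 of 7 cases, those for endothelial markers in 2 of 5 and those for fibroblast markers in 2 of 4, and none of these passed the cutoffs used below. The summed intensity of the 4 fibroblast probes, mostly that of COL1A1, was 1304 and 915 on the control arrays at 48 h and 96 h. On the knockdown arrays it was 1988 and 1726. That of the 5 endothelial probes was 538 and 531 on the control arrays against 438 on either knockdown array. Among the epithelial markers EPCAM was 1.95-fold and 1.98-fold higher after knockdown at 48 h and 96 h (limma adjusted p = 0.452, or 0.0300 with time point as a replicate block). CDH1 was 1.86-fold and 1.49-fold higher (limma adjusted p = 0.890, or 0.0518 with the block). The KRT8 and KRT18 probes had log2 fold changes between -0.079 and 0.17. The part of these markers in the results was not tested. PDGFRB, another fibroblast marker, was not well above background on any array.

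CRABP1 was lower after knockdown at both time points. Probe A_33_P3326483 read 4.73 on the control array and 2.69 on the knockdown array at 48 h, then 4.25 and 1.82 at 96 h. Probe A_33_P3216869 read 2.47 and 0.52 at 48 h, then 2.32 and -0.20 at 96 h. Both knockdown arrays lay below both control arrays at either probe. CRABP1 was thus 4.10-fold and 3.88-fold lower at 48 h, and 5.36-fold and 5.75-fold lower at 96 h, at the first and the second probe. Over all arrays the log2 fold change was -2.23 (standard error 0.35) at the first probe and -2.24 (standard error 0.27) at the second, and these were the 2 lowest values among the 23244 probes tested. Each probe was read from 1 spot on an array, and both carry the same transcript accession, so they are not independent samples. RNA came from whole cultures, in which fewer cells with CRABP1 and less CRABP1 RNA per cell cannot be told apart.

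The fold change of CRABP1 lay lower at 96 h than at 48 h, with a difference of -0.39 at the first probe and of -0.57 at the second (log2). From 48 h to 96 h its signal moved by -0.48 and -0.15 in control cells and by -0.87 and -0.72 in knockdown cells. All 4 of these changes were downward. With 1 array per combination the difference between time points was not tested, and as each time point had a slide of its own, time point and slide cannot be told apart.

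**Figure D1:**
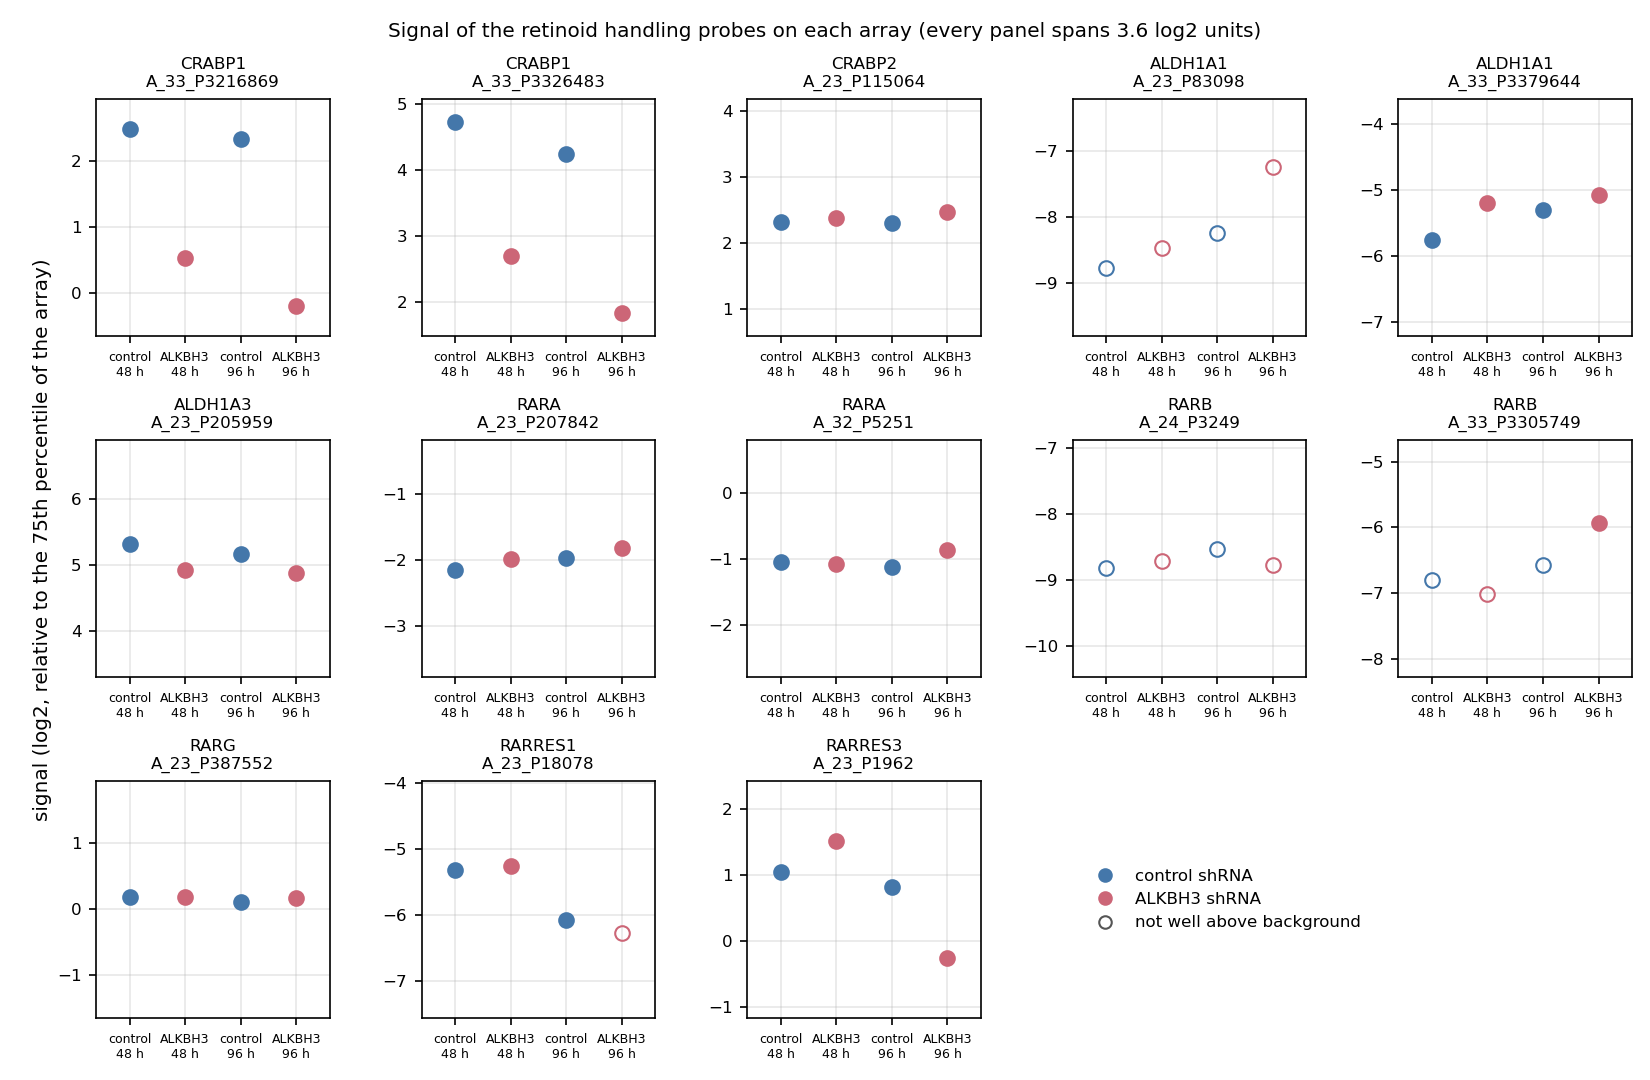
Signal of the 13 probes of the 9 genes on each of the 4 arrays (vertical axis, log2 relative to the 75th percentile of the array, with each panel spanning the same range around its own centre). Blue points are control shRNA arrays, red points ALKBH3 shRNA arrays, and open points were not well above background. Both CRABP1 probes were lower on both knockdown arrays, RARRES3 was highest at 48 h and lowest at 96 h with ALKBH3 shRNA, and both RARB probes and 1 ALDH1A1 probe had open points on 3 or 4 arrays.

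CRABP2, the other binding protein, read 2.32 in control and 2.37 in knockdown cells at 48 h, then 2.30 and 2.47 at 96 h. Its values lay close together, with both knockdown arrays above both control arrays. The log2 fold change was 0.11 (standard error 0.12), with a 95% interval from -0.20 to 0.43.

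A probe was called when it changed at least 2-fold with an unadjusted limma p below 0.05, the cutoffs of the study. Of the 13 probes, 10 passed the filter on dim signal and 2 of these were called lower, both of CRABP1, where the rule that chose the gene used the same values. Over all probes tested, 1.12% were called (54 lower and 206 higher). The 8 tested probes of the other genes were not called, and their log2 fold changes were at most 0.40 in size, with limma adjusted p between 0.645 and 0.992. Of these 8 probes 1, that of ALDH1A3, had an unadjusted limma p below 0.05, as had 7.66% of all probes tested (7.02% by the methods' t-test). Knockdown arrays lay entirely below the control arrays at 1 of the 8 and entirely above them at 2, against 18.6% and 17.4% of all probes tested, or 36% in either direction. The CRABP1 probes, chosen for being lower, are left out of these counts.

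The enzymes of retinoic acid synthesis differed in how well they were measured. ALDH1A3, a retinaldehyde dehydrogenase of the prostate epithelium, read 5.31 on the control array and 4.93 on the knockdown array at 48 h, then 5.17 and 4.88 at 96 h. The knockdown arrays lay below the control arrays at both time points. Its log2 fold change was -0.33 (standard error 0.13, 95% interval from -0.66 to -0.0045), a 1.26-fold difference that did not reach the 2-fold cutoff. For ALDH1A1, known as a marker of stem-like cells in several tumours, probe A_33_P3379644 gave -5.77 and -5.19 at 48 h and -5.30 and -5.08 at 96 h, control cells first. These signals were well above background but near the floor of the arrays, and the log2 fold change was 0.40 (standard error 0.20, 95% interval from -0.12 to 0.91). The second ALDH1A1 probe, A_23_P83098, was not well above background on any array and was not tested.

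Among the receptors, RARG read 0.19 with either shRNA at 48 h, then 0.10 in control and 0.17 in knockdown cells at 96 h. Its knockdown and control arrays overlapped, at a fold change of 0.034 on the log2 scale (standard error 0.12, 95% interval from -0.28 to 0.34). RARA was read by 2 probes. A_32_P5251 gave -1.04 and -1.08 at 48 h and -1.12 and -0.86 at 96 h, and A_23_P207842 gave -2.15 and -1.99 at 48 h and -1.97 and -1.82 at 96 h, control cells first. The arrays of the shRNAs overlapped at both probes, and the log2 fold changes were 0.11 and 0.16 (standard error 0.14 each).

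RARB, the receptor gene that is itself a classical target of retinoic acid, was at background. Probe A_24_P3249 was well above background on no array and A_33_P3305749 on 1, that of ALKBH3 shRNA at 96 h, where its signal was -5.93 against -6.57 on the control array of that time. Neither was tested.

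A start of RARB carries the letters of a retinoic acid response element, shown here because such elements are what the receptors bind. Direct repeats of the half-site AGGTCA or of its variant forms AGTTCA together with GGGTCA as well as GGTTCA, with 2 or 5 bases between them, were searched on both strands of the RefSeq promoter windows (GRCh38.p14, 250 bases before to 50 after a start). Of the 13 windows found for 8 of the 9 genes (all but RARRES3), 1 held a match, at 1 of 4 starts of RARB, against 0.128% of 35116 windows overall. The windows of the wider list of retinoid genes described below, which includes the 9 genes, were searched too. Of these 92 windows 2 held a match (2.17%), that of RARB and 1 of CYP26A1. CYP26A1 encodes the retinoic acid hydroxylase and is another classical target. Capitals mark the 2 repeats and lower case the spacer, 5′ to 3′ on the strand named.
RARB, chr3:25428210-25428226, plus strand, 53 to 37 bases before the start: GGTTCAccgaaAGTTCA
CYP26A1, chr10:93073803-93073819, minus strand, 90 to 74 bases before the start: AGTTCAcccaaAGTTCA
CRABP1, with 1 window, held no match, which says only that these letters are not in that window. CYP26A1 was measured near the floor, reading -5.88 and -5.86 at 48 h and -5.42 and -5.22 at 96 h, control cells first. Its limma adjusted p was 0.983 at a log2 fold change of 0.11 (standard error 0.28), or 0.536 with time point as a replicate block (standard error 0.094). The arrays of the shRNAs overlapped for CYP26A1.

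RARRES3, now named PLAAT4, encodes a phospholipase known to be induced by retinoids and by interferon. It read 1.05 in control and 1.51 in knockdown cells at 48 h, then 0.82 and -0.25 at 96 h. The 2 knockdown arrays were thus the highest and the lowest of the 4, a fold change of 0.46 at 48 h and of -1.08 at 96 h (log2), or 1.38-fold higher and then 2.11-fold lower. Within the control cells it moved by -0.23 between the time points, and within the knockdown cells by -1.77. The log2 fold change over all arrays was -0.31 with a standard error of 0.60 (95% interval from -1.88 to 1.27). Leaving out the 96 h knockdown array turned it to 0.58. Leaving out the 48 h knockdown array gave -1.19, and RARRES3 then passed the cutoffs.

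RARRES1, which encodes a membrane protein silenced in many tumours, read -5.33 and -5.27 at 48 h and -6.08 and -6.27 at 96 h, control cells first, the last value not well above background. Here the time points differed more than the shRNAs, by -0.75 in control cells and by -1.01 in knockdown cells. For the shRNAs the log2 fold change was -0.067 (standard error 0.43, 95% interval from -1.20 to 1.07). That standard error includes the shift between time points. With time point as a replicate block it was 0.10, at a limma adjusted p of 0.745.

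**Figure D2:**
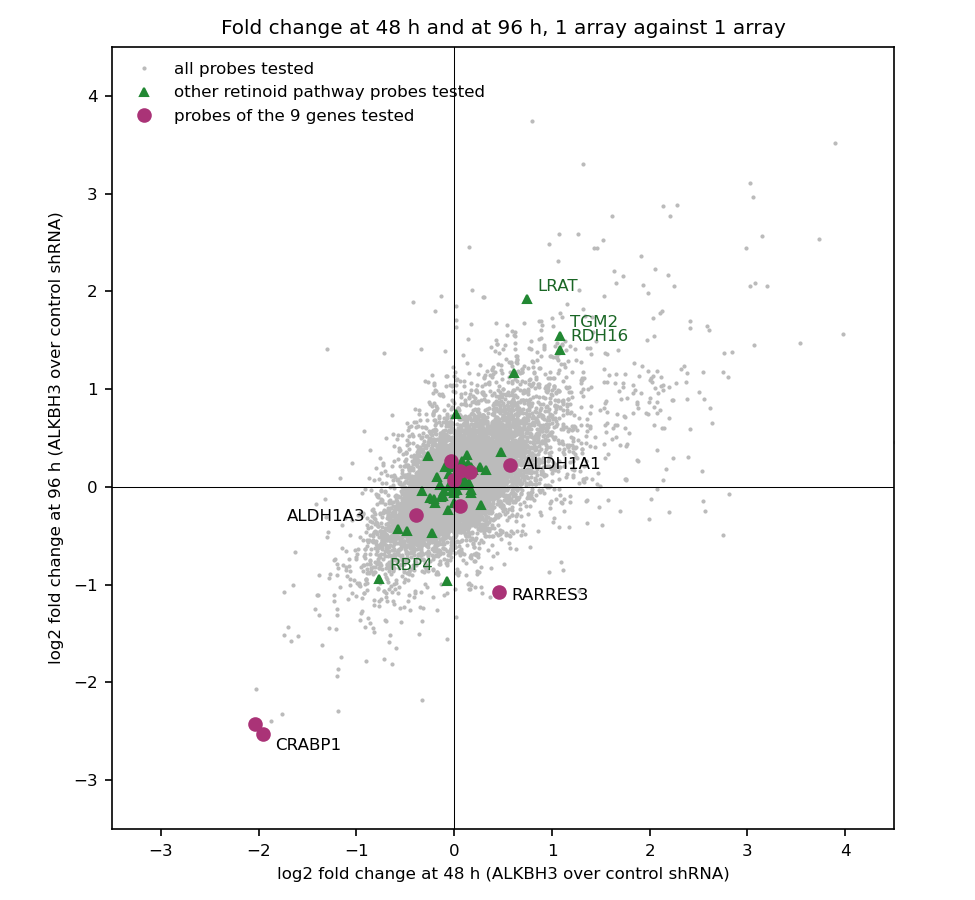
Log2 fold change (ALKBH3 over control shRNA) at 48 h on the horizontal axis and at 96 h on the vertical axis, 1 array against 1 array, for all probes tested (grey, 1 of which lies outside the axes), other probes of the retinoid pathway (green triangles) and probes of the 9 genes (purple circles). The CRABP1 probes lie at the lower left, RARRES3 lies at 0.46 and -1.08, and most retinoid probes lie near the centre.

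To place the 9 genes in their pathway, a list of 70 retinoid genes was used, which includes them. It was drawn up by function with earlier results of these arrays known. Of these genes 69 had a probe, and 64 of their 89 probes, for 48 genes, were tested. Of the 64, 3 were called higher and 2 lower, the latter those of CRABP1, and the others were not called. CRABP1 was chosen for being lower. Of the 54 tested probes outside the 9 genes, 3 were called higher and 0 lower. By role, both lower probes were among 9 tested for binding and transport, 2 higher ones among 18 for synthesis and storage and 1 among 16 for response genes, with none called among 20 for receptors and cofactors or the 1 for breakdown. Of the 3 higher probes, those of LRAT and RDH16 passed the filter on dim signal only through the knockdown arrays, where they were high, and with a filter on all 4 arrays 1 was called higher. Among all probes tested 0.886% were called higher and 0.232% lower. The median log2 fold change was 0.052 over the 64 probes and 0.0028 over all probes tested.

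The probes called higher belonged to TGM2, LRAT and RDH16. TGM2, a transglutaminase whose gene responds to retinoic acid, read -1.51 in control and -0.43 in knockdown cells at 48 h, then -1.04 and 0.50 at 96 h (probe A_24_P923251). Both knockdown arrays were above both control arrays, and the log2 fold change was 1.31 (standard error 0.36). The limma adjusted p was 0.517, or 0.0347 once time point entered as a replicate block. A second TGM2 probe, A_32_P86763, had 0.88 (standard error 0.19, limma adjusted p = 0.396) and missed the 2-fold cutoff. Without the 96 h knockdown array the first probe was at 0.85 and no longer called, and it was not called by the methods' t-test.

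LRAT, which esterifies retinol for storage, was well above background on both knockdown arrays (-5.79 and -5.45) and on neither control array (-6.54 and -7.37). It was at least 1.87-fold higher after knockdown (limma adjusted p = 0.444), a bound below the 2-fold cutoff. Since the filter admitted it through the knockdown arrays alone, that p is no test free of the filter. RDH16, a retinol dehydrogenase, read -6.05 and -4.97 at 48 h and -6.33 and -4.92 at 96 h, control cells first, of which the 96 h control array was not well above background. It differed by 1.24 (standard error 0.15) on the log2 scale, given without a p since it too was admitted through the knockdown arrays alone. Both are dim probes, and with normexp background correction the log2 fold changes were 0.25 for LRAT and 0.43 for RDH16, so that neither was called. On the deposited normalized log2 values they were 0.48 and 0.70, again below the cutoff.

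RBP4, the retinol carrier, was lower at both time points without reaching 2-fold. It read 4.25 and 3.48 at 48 h and 4.17 and 3.23 at 96 h, control cells first. Both knockdown arrays lay below both control arrays, by -0.85 on the log2 scale (standard error 0.14). The limma adjusted p was 0.383, or 0.0357 with the block. Among the 54 tested probes of the list outside the 9 genes, the first of TGM2 and that of RBP4 passed an adjusted p of 0.05 with the block. RDH16 also passed, but it was admitted through the knockdown arrays alone, so its p is no test free of the filter. Of all probes tested 2.95% passed, a share that includes probes admitted in that way. In the limma fit without the block 0 probes passed and 1780 had an unadjusted p below 0.05, while the methods' t-test passed 0 after adjustment and 1632 before it.

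Other genes of the pathway that had been listed for their role showed small differences. RXRA and RXRB, the partners of the retinoic acid receptors, had log2 fold changes of -0.17 and -0.030, and RDH10 and DHRS3, which interconvert retinol and retinaldehyde, had 0.056 and 0.042. FABP5, which can carry retinoic acid to another receptor, had 0.081, -0.019 and -0.023 at its 3 probes. None of these was called, with limma adjusted p between 0.890 and 0.993 and standard errors between 0.14 and 0.29. Probes for ALDH1A2, CYP26B1, STRA6 and RARRES2 were not well above background on any array. Outside these, MEIS2, NR2F1, PPARD (A_24_P252130) and GPRC5A had log2 fold changes of -0.46, -0.35, -0.50 and 0.41. They had unadjusted limma p below 0.05 and adjusted p between 0.459 and 0.645, and were not called. The second PPARD probe was at -0.18. Of the 54 tested probes outside the 9 genes, 9 had an unadjusted limma p below 0.05, against 7.66% of all probes tested. LRAT and RDH16, admitted through the knockdown arrays alone, are among them.

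**Figure D3:**
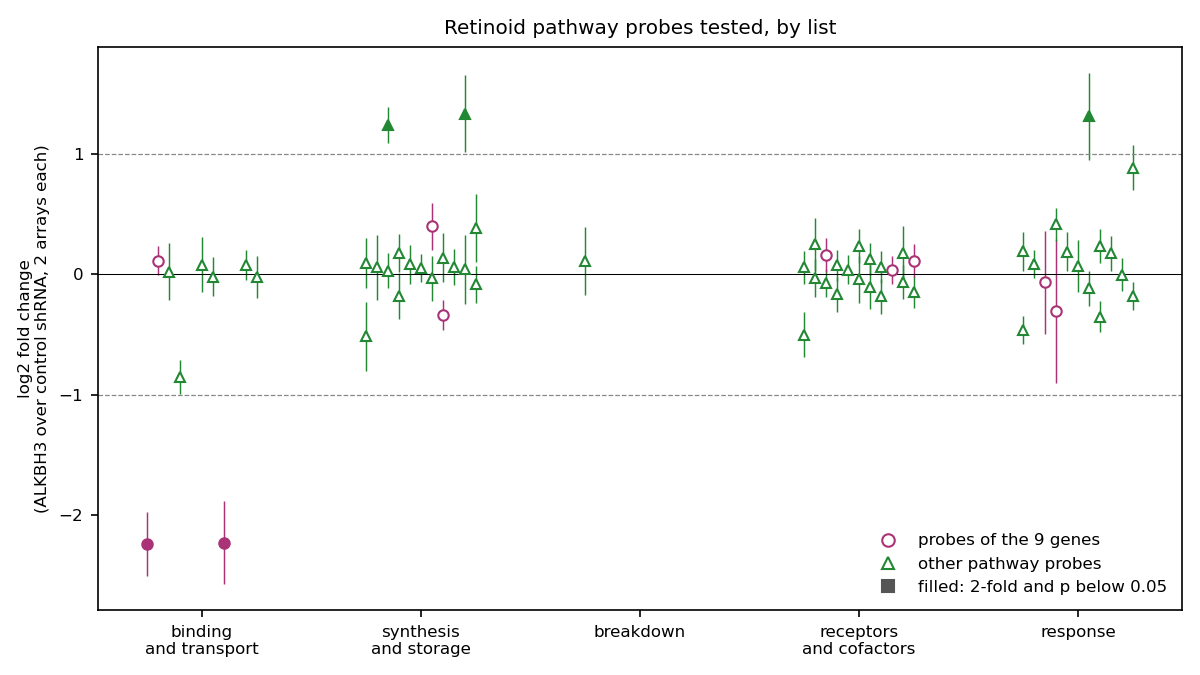
Log2 fold change (vertical axis, ALKBH3 over control shRNA, 2 arrays each) of the 64 retinoid pathway probes tested, by list along the horizontal axis, with bars of 1 standard error and dashed lines at a 2-fold change. Purple circles are probes of the 9 genes, green triangles other pathway probes, and filled symbols were called. Called probes were the 2 of CRABP1 below the lower line and those of LRAT, RDH16 and TGM2 above the upper line.

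The genes whose signal ran most like that of CRABP1 over the 4 arrays were found by the root mean square difference after the mean of each probe had been subtracted. For probe A_33_P3326483 they were HLF, a transcription factor of the PAR bZIP family, at 0.063, NPY2R, a neuropeptide Y receptor, at 0.359 and KRT37, a hair keratin, at 0.360 (log2). The other CRABP1 probe lay at 0.129 from it, farther than HLF. HLF read -0.81 in control and -2.68 in knockdown cells at 48 h, then -1.18 and -3.57 at 96 h. NPY2R was not well above background on the 96 h knockdown array. For probe A_33_P3216869 the nearest were HLF at 0.115, ALKBH3 itself (A_23_P35989) at 0.274 and NPY2R at 0.351. CRABP1 was chosen as one of the largest falls, so probes near it by this measure are bound to be falls too. Log2 fold changes were -2.13 for HLF, -1.62 for NPY2R, -1.56 for KRT37 and -2.05 for ALKBH3 (A_23_P35989). NPY2R passed the filter on dim signal only through the control arrays, where it was high. Over the settings that kept it, its log2 fold change lay from -1.83 to -0.76, against -1.85 to -1.27 for KRT37 and -2.58 to -1.68 for HLF. With 4 arrays this likeness is only a description of these samples.

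**Figure D4:**
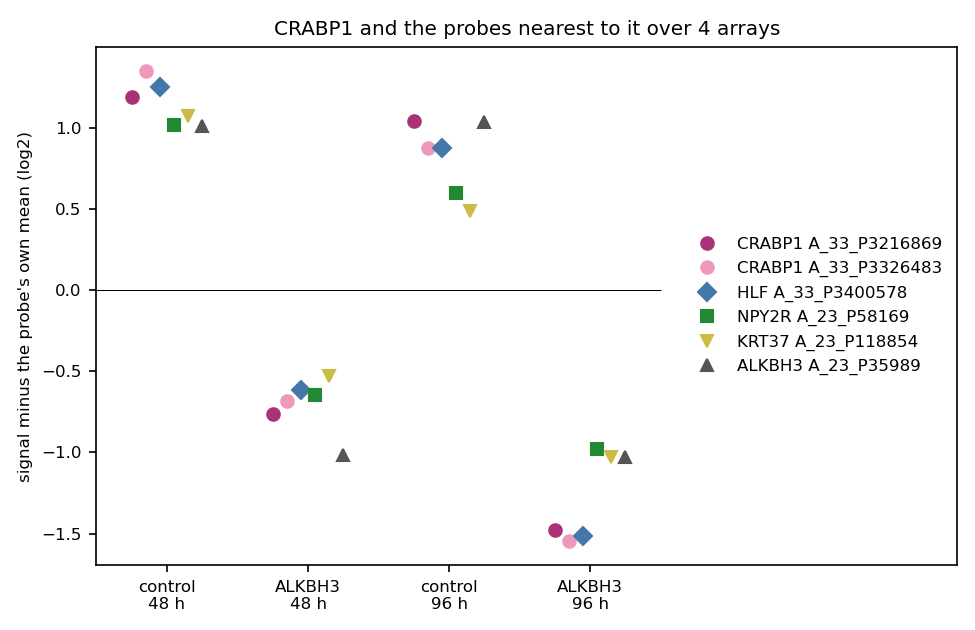
Signal minus the mean of the probe (vertical axis, log2) on each of the 4 arrays for both CRABP1 probes and the probes nearest to either of them (HLF, NPY2R, KRT37 and ALKBH3), with points shifted sideways for legibility. On every array HLF lies close to CRABP1, while ALKBH3 is as low at 48 h as at 96 h in knockdown cells.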

How the data were processed

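The deposited intensities of each array came from Agilent Feature Extraction (version 10.7.3.1, per the file headers), which subtracts background and detrends each array separately. A second table that the authors made holds log2 values normalized across the 4 arrays (limma per the methods, procedure within it not given) and served as an alternative. The files carry no gene name, so accessions were matched to RefSeq gene names (GRCh38.p14), and 24910 of 34127 probes received one. Spots marked as outliers (180 to 379 on an array) were removed, log2 intensities were centred on the 75th percentile (2150 to 2394) and spots of a probe were averaged. Probes were tested if well above background, in at least 0.5 of their spots, on both arrays of either shRNA.

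The fit was limma 3.58.1 (lmFit and eBayes, R 4.3.3) on probes, 2 arrays against 2, with Benjamini-Hochberg adjustment over all probes tested, and intervals of 95% came from it. Its standard errors and intervals include the shift between time points, since the 2 arrays of an shRNA differ in time point. The study's methods name limma. Probes rather than genes were tested so that each probe of a gene could be shown. A fold written as "at least" compares, on each control array, against the higher of the probe's own signal and the weakest signal well above background. Time point, which both arrays of a slide share, was a replicate block in an alternative: the labels pair the arrays by time point, and the change from 48 h to 96 h correlated at 0.66 between the shRNAs across probes. With so few arrays, the block leaves very little residual spread to estimate at a probe. Its standard errors and p-values therefore rest largely on the variance that limma shares across probes. The named genes were the 9 genes, ALKBH3, the 3 genes nearest to CRABP1, and pathway genes called, listed for their role or with an unadjusted limma p below 0.05. Members and lists were chosen with earlier results of these data known. Alternatives were normexp correction (offset 50), quantile, median or other percentile scaling, the deposited normalized values, other filters, 1 value per gene, an unpaired t-test, a 1.5-fold cutoff and leaving out each array. The fit was tested on simulated data with independent noise and large planted changes. The simulation held no shift between time points, so it checks the working of the fit and not the design of these arrays.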

Additional observations from a re-analysis of the deposited data

Results flagged for a closer look

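At 4 probes the fold change had opposite signs at the 2 time points, each from 1 array against 1 array, and the difference was not tested. RARRES3 stood at 0.46 at 48 h and -1.08 at 96 h (log2). The other 3 were smaller, with 0.060 and -0.19 for RARRES1, -0.034 and 0.26 for RARA (A_32_P5251), and -0.00020 and 0.069 for RARG.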

How the results depend on the processing

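The log2 fold changes of the CRABP1 probes, a description since the gene was chosen by them, lay from -2.66 to -1.795 over the settings that kept them. The 206 probes called higher and 54 called lower became 76 and 27 with normexp background correction, 82 and 26 with quantile normalization added to it, 495 and 113 with no filter on dim probes, 60 and 25 by the methods' t-test, and 595 and 292 at a 1.5-fold cutoff. The normalized log2 values gave 118 higher and the filter on all 4 arrays 123 higher. With 1 probe per gene 34 were lower and with the mean over probes 31, and both left 1 lower probe among the 9 genes and in the pathway list. Pathway probes called higher numbered 1 with normexp (alone or with quantile normalization), the normalized values, the filter on 4 arrays and the t-test, and 6 without the filter. With time point as a replicate block, 685 probes in place of 0 passed an adjusted p of 0.05. Leaving out 1 array gave 244 to 506 higher and 52 to 134 lower, 2 to 3 lower among the 9 genes, and 2 to 4 higher and 2 to 3 lower in the pathway list.

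Small differences changed sign. CYP26A1 was at -0.029 with normexp, -0.0019 with quantile normalization, -0.0091 with both and -0.025 on the normalized values. FABP5 was at 0.0034 (A_24_P673063) and 0.0023 (A_32_P204676) with quantile normalization and 0.013 for the mean over probes, and A_32_P204676 at 0.024 with normexp and quantile normalization and 0.0035 on the normalized values. Leaving out 1 array, ranges that crossed 0 were -1.19 to 0.58 for RARRES3, -0.57 to 0.44 for RARRES1, -0.0078 to 0.076 for RARG, -0.21 to 0.43 for CYP26A1, -0.33 to 0.41 for DHRS3, -0.16 to 0.096 for RXRB, -0.25 to 0.37 for RDH10, and -0.14 to 0.30, -0.16 to 0.12 and -0.18 to 0.13 for FABP5. Leaving out 1 array sets 1 time point of an shRNA against both of the other, so these ranges include the shift between time points. The cause of the other sign changes was not tested. With 1 array left in an arm, its spread is assumed to equal that of the other arm. Signals of ALDH1A1, RARRES1, LRAT, RDH16 and CYP26A1, and those of NPY2R on the knockdown arrays, lay near background, which limits their fold changes.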
